A study of Mus musculus with 23 samples.

Results

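The 10 genes described here are regulators, enzymes and membrane proteins of the red cell lineage: Gata1, Klf1, Epor, Car1, Car2, Blvrb, Ermap, Rhd, Aqp1 and Tspo2. They were taken by symbol from the gene rows of the deposited matrices. The choice of genes was made with earlier results of these data known, and each of the 10 had a row among the 32285 genes listed in all 11 gene-expression libraries. All 10 had at least 1 UMI (a unique molecular identifier, the tag that marks 1 captured transcript) in every library.

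The study compared loss of Jarid2, an accessory factor of Polycomb repressive complex 2 (PRC2), with loss of Ezh2, its catalytic subunit, in mouse KSL cells (c-Kit+ Sca1+ Lineage-), the bone marrow fraction that holds stem cells and multipotent progenitors. The 6 baseline libraries came from untransplanted mice aged 2 months, with 1 male and 1 female library for each genotype (Control, Ezh2 KO, Jarid2 KO), and also carried counts for 6 surface proteins. The 5 transplant libraries (1 Control, 2 Ezh2 KO, 2 Jarid2 KO) held CD45.2 donor KSL cells sorted 18 weeks after 500000 donor and 500000 CD45.1 competitor bone marrow cells were given together to lethally irradiated recipients, and their labels give no sex. All groups, the Controls included, carry the label Mx1-Cre, an interferon-inducible Cre that acts in blood cells and in other tissues, and the knockouts combine it with floxed Jarid2 (Jarid2 fl/fl) or floxed Ezh2 (Ezh2 fl/fl). The labels name separate samples but not how many mice each one holds, so p-values measure only the spread between these samples, which may be technical.

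In red cell formation GATA1, a zinc finger transcription factor, and KLF1, which binds CACC-box elements, switch on the genes of the lineage together with partners such as TAL1 and LMO2. The erythropoietin receptor signals through JAK2 and STAT5 to keep committed progenitors alive. Carbonic anhydrases, heme enzymes and blood group proteins follow as the cells mature, and GATA1 is also used by megakaryocytes, mast cells, basophils and eosinophils.

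Because GATA1 and KLF1 are themselves among the 10 genes, the 250 bases before the RefSeq starts of 8 of them were searched for the letters these factors are known to bind. Letters of the GATA type were AGATAA or AGATAG and, with T as the first base, TGATAA or TGATAG. Letters of the CACC type were CCNCNCCC, and both strands were read. The sequences shown are those of both transcription factors, of the receptor and of Rhd, on build GRCm38.p6, printed 5′ to 3′ on the gene's strand, and the capitals mark the matched letters of either type.
Klf1, chr8:84901732-84901981, plus strand: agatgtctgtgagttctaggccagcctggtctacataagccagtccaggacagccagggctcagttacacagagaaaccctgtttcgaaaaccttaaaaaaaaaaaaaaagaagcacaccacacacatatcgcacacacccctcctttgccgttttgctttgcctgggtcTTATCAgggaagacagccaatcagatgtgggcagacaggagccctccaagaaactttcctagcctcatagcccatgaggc
Epor, chr9:21963577-21963826, minus strand: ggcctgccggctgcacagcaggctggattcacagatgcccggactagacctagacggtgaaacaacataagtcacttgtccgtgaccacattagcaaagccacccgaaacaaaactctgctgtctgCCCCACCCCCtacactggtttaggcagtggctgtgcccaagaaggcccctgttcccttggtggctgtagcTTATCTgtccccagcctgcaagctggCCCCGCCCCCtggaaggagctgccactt
Rhd, chr4:134864286-134864535, plus strand: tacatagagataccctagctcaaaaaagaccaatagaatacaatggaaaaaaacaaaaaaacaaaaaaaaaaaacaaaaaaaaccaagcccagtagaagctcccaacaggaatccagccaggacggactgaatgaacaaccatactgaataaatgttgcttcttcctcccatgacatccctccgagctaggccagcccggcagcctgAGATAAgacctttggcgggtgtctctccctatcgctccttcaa
Gata1, chrX:7967911-7968160, minus strand: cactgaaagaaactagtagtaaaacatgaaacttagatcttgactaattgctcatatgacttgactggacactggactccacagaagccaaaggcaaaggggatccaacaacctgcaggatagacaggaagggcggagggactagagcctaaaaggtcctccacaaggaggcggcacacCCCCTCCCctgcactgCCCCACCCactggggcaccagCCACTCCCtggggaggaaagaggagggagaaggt
The Klf1 window held 1 GATA-type match, 80 to 75 bases before the start, and the Rhd window held 1 at 43 to 38. Epor held 1 GATA-type match at 54 to 49 bases together with 4 CACC-type matches, of which some overlap each other. The Gata1 window, which lies inside the annotated span of the gene because that span reaches further upstream, held 3 CACC-type matches and 0 of the GATA type. No CACC-type match overlapped a GATA-type match in the windows of these genes. Of 32851 RefSeq promoter windows of this length, 26.5% held a GATA-type match, 45.9% a CACC-type match and 8.19% both, so such letters are common and a match is a description of the window. Of the windows not shown, that of Ermap held 1 GATA-type match, those of Aqp1 and Tspo2 held 0 of the GATA type and 3 and 2 of the CACC type, and the 2 starts of Blvrb held 0 and 1 of the GATA type and 4 and 0 of the CACC type. RefSeq windows were matched for 8 of the 10 genes; Car1 and Car2 are named only.

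The 97066 deposited barcodes gave 73310 kept cells, 46839 at baseline and 26471 after transplantation, with 4354 to 9208 per library. Kept UMIs per library were 83921210 to 126527222 at baseline and 67629053 to 111514122 in transplants. Median UMIs per cell were 10764 to 12661 and 11786 to 17611. Barcodes above the limit on mitochondrial UMIs made up 2.82% to 5.82% of baseline libraries and 25.7% to 43.4% of transplant libraries. After transplantation this share was 43.4% in the Control, 25.7% and 27.4% in the Ezh2 KO pair and 36.6% and 37.4% in the Jarid2 KO pair. Of the barcodes past the cell filters, between 6.13% and 8.30% per library were removed as likely doublets, and 614 baseline and 261 transplant cells carry a barcode that occurs in another library of the same experiment. Cells with Xist, which marks female cells, made up 59.4% of the transplant Control, 0.0163% and 0.0511% of the Ezh2 KO libraries and 48.3% and 49.9% of the Jarid2 KO libraries, so donor sex and genotype cannot be told apart in the transplant sums, and values from male cells alone are given for members. Tests within clusters and of the other genes on the lists were run on cells of both sexes only. Ezh2 stood at 185 CPM (counts of UMIs scaled to 1e6 per library) in the transplant Control against 38.8 and 47.0 in the libraries labelled Ezh2 KO (log2 fold change -2.19 ± 0.13, an error derived from the test statistic, adjusted p = 0.000832, edgeR). At baseline the same contrast was -0.33 ± 0.06 (adjusted p = 0.0599). Jarid2 was not lower in the libraries labelled Jarid2 KO, at 57.3 and 57.1 CPM against 38.5 after transplantation and 215 and 205 against 159 and 150 at baseline. These 3′ tags can lie outside a floxed segment and so do not check the deletion. Directions below are therefore those of the libraries labelled Jarid2 KO and Ezh2 KO.

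In the baseline libraries all of the genes but Car2 differed between the male and female library of Control and of Jarid2 KO. With 1 library per sex and genotype, differences between single libraries and sex differences that depend on genotype cannot be told apart. All of the genes but Car2 were highest in the female libraries of Control and Jarid2 KO, and the other 4 libraries lay close together. Car2 was high and nearly level in all 6. Between genotypes 0 members passed edgeR's test on the sums in the 3 contrasts (1 unadjusted), while Car2 was called for Jarid2 KO against Ezh2 KO by DESeq2 and, in the shares of cells, by limma.

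Gata1, the zinc finger factor that red cell, megakaryocyte and mast cell development needs, was at 3.32 and 11.6 CPM in the male and female Control, 4.66 and 5.58 in the Ezh2 KO pair and 3.78 and 11.8 in the Jarid2 KO pair. Klf1, the activator of the adult beta-globin gene, was at 3.05 and 11.9 CPM in Control, 3.98 and 4.47 in the Ezh2 KO pair and 4.21 and 15.7 in the Jarid2 KO pair. For both factors the females of Control and Jarid2 KO were the high pair, and the Control range enclosed both Ezh2 KO values. The female library of Control held 3.49 times as much Gata1 as the male and 3.90 times as much Klf1, against 1.20 and 1.12 times in Ezh2 KO and 3.12 and 3.73 times in Jarid2 KO. Epor, the erythropoietin receptor, followed the same order at 1.62 and 5.52 CPM in Control, 2.36 and 2.34 in the Ezh2 KO pair and 2.05 and 6.32 in the Jarid2 KO pair.

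Among the enzymes, Car1, the carbonic anhydrase of early red cell progenitors, had the widest spread. Car1 was at 51.1 and 216 CPM in Control, 79.5 and 80.7 in the Ezh2 KO pair and 93.3 and 311 in the Jarid2 KO pair. Car2, a carbonic anhydrase that many cells use, was at 583 and 594 CPM in Control, 544 and 502 in the Ezh2 KO pair and 612 and 677 in the Jarid2 KO pair. Both Ezh2 KO values of Car2 were below both Control values, and both Jarid2 KO values were above them. How large a share of all genes separates in this way is not given here. Blvrb, a biliverdin reductase of the heme breakdown pathway, was at 55.9 and 96.2 CPM in Control, 54.2 and 51.5 in the Ezh2 KO pair and 58.0 and 115 in the Jarid2 KO pair, again with the 2 females of Control and Jarid2 KO highest.

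The membrane proteins were highest in the same 2 female libraries. Ermap, the Scianna blood group protein, was at 4.50 and 20.1 CPM in Control, 7.10 and 5.97 in the Ezh2 KO pair and 6.98 and 29.7 in the Jarid2 KO pair. Rhd, the Rh blood group antigen, was at 2.93 and 12.5 CPM, 4.12 and 3.51, and 4.58 and 19.0 in the same order. The water channel Aqp1 was at 5.09 and 17.8 CPM in Control, 6.43 and 6.73 in the Ezh2 KO pair and 6.16 and 18.7 in the Jarid2 KO pair. Tspo2, a translocator protein of erythroid cells, was at 1.98 and 9.45 CPM, 3.19 and 2.48, and 2.61 and 13.3. In each of these 4 genes the female of Jarid2 KO was the highest library, the female of Control came next, and the 2 Ezh2 KO values lay between the 2 Control values.

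**Figure D1:**
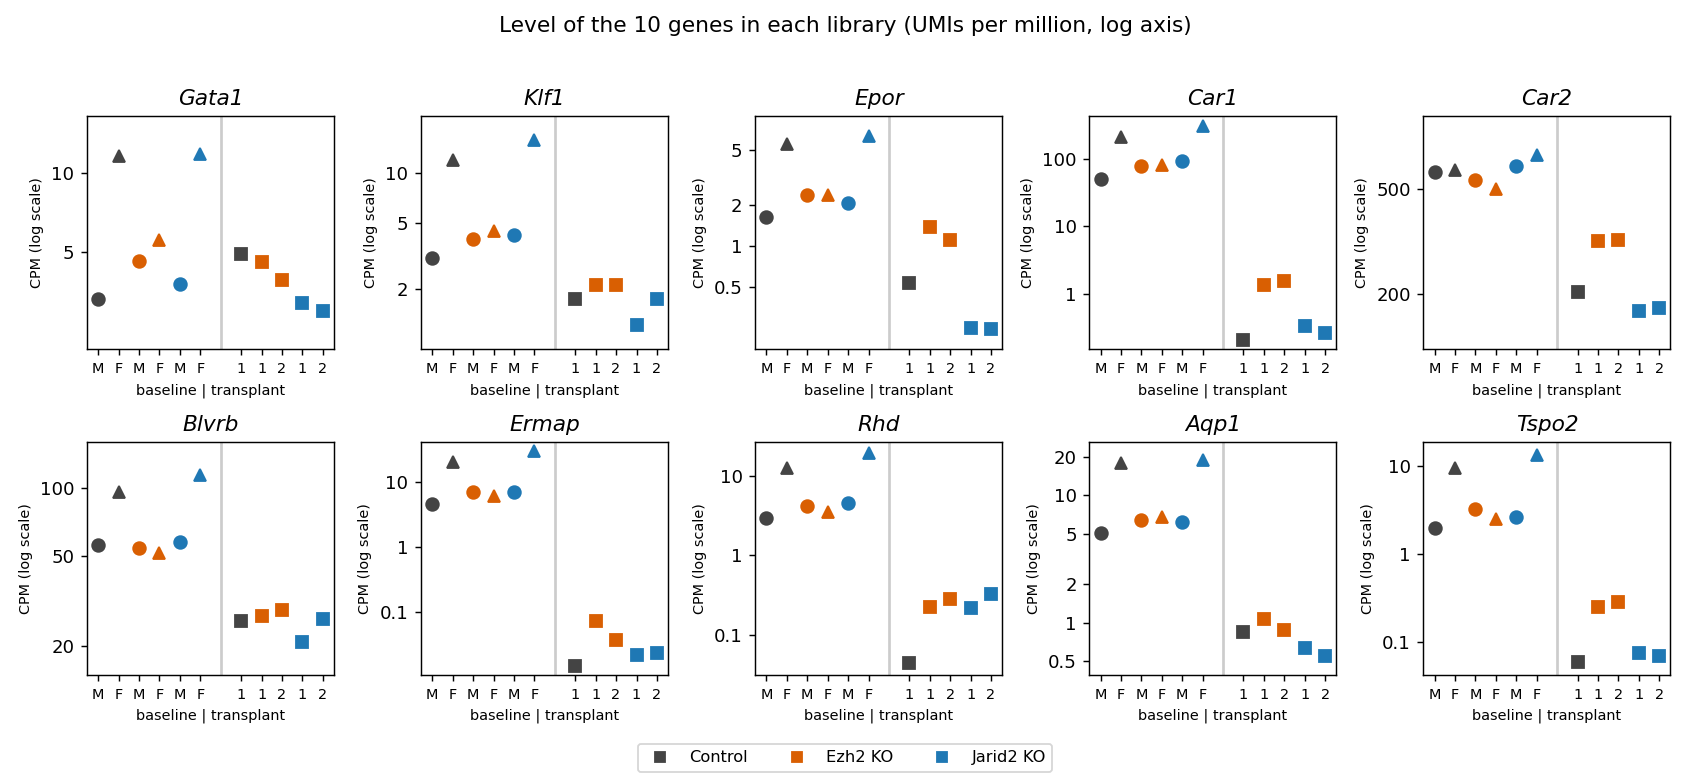
Level of each of the 10 genes in every library, in CPM on a log axis, with each point 1 library (C Control, E Ezh2 KO, J Jarid2 KO; M male and F female at baseline, numbers for transplant libraries). At baseline the C and J females stand above the other 4 libraries for every gene but Car2; after transplantation the pair of Ezh2 KO libraries is highest for Car1 and Epor.

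The genotype tests were run by edgeR on the counts of all kept cells summed per library, with sex as a term and Benjamini-Hochberg adjustment over 18177 genes. In such sums, fewer cells of a type and less RNA per cell cannot be told apart. For Jarid2 KO against Control, 0 of the 10 members passed (0 with an unadjusted p below 0.05, DESeq2 0), where 0.0330% of all genes did. Ezh2 KO against Control gave 0 as well (0 unadjusted, 0 by DESeq2), beside 3.47% of all genes. In the contrast of Jarid2 KO with Ezh2 KO 0 passed by edgeR, 1 with an unadjusted p below 0.05, beside 5.91% of all genes, and DESeq2 called 1, beside 9.13%. The 1 gene was Car2, at 0.28 ± 0.08 on the log2 scale (adjusted p = 0.103 by edgeR), or 0.27 ± 0.08 by DESeq2 (adjusted p = 0.0149).

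The estimates of the other members were wide. Klf1 was estimated at 0.44 ± 0.45 for Jarid2 KO against Control (adjusted p = 0.741) and at 0.87 ± 0.47 for Jarid2 KO against Ezh2 KO (adjusted p = 0.303), and Gata1 at 0.10 ± 0.38 and 0.33 ± 0.39 (0.937 and 0.641). The largest estimate was that of Rhd for Jarid2 KO against Ezh2 KO, at 1.16 ± 0.61 (adjusted p = 0.291, edgeR). All 10 estimates lay above 0 for Jarid2 KO against Control, with a median of 0.35 beside 0.00 over all genes, and all 10 lay below 0 for Ezh2 KO against Control, with a median of -0.40. The contrasts share their Control libraries, and the members share the same high libraries, so these signs are not separate observations.

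By sex, the Ezh2 KO against Control difference ran in opposite directions for 8 of the members. Klf1 was higher in the male Ezh2 KO library than in the male Control (log2 ratio 0.38) and lower in the female (-1.41), and Gata1 stood at 0.49 and -1.06. Each such ratio compares 1 library with 1 library and was not tested. Leaving out the male Ezh2 KO library, which leaves the female as the lone Ezh2 KO sample, assumed to vary like the others, gave 7 members as lower in Ezh2 KO than in Control (edgeR): Klf1 at -1.37, Car1 at -1.32, Blvrb at -0.93, Ermap at -1.71, Rhd at -1.80, Aqp1 at -1.33 and Tspo2 at -1.93, beside 0.534% of all genes called in that fit. The same omission gave 9 members as higher in Jarid2 KO than in Ezh2 KO, all but Car2, beside 1.27%. Leaving out the female instead turned Ermap to 0.70 ± 0.08 (adjusted p = 0.0423, edgeR) for Ezh2 KO against Control. The baseline direction of Ermap between Ezh2 KO and Control thus depended on which of the 2 libraries was used. In each of these fits Ezh2 KO rested on a lone library that all members share, so the calls are not separate observations.

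The transcripts were concentrated in a small group of cells, and how many of those cells a library held moved with the level in the sum. Cells were clustered without the 10 genes and without the other erythroid genes on the lists used here. A single cluster carried 14 of the erythroid markers, had a median of 25098.5 UMIs in Control cells against 10866.5 over all Control cells, and is called erythroid-like by a naming rule that was adjusted after the clusters had been seen. It held 47 and 255 cells of the male and female Control, 81 and 89 of Ezh2 KO and 56 and 209 of Jarid2 KO, which are 0.699% and 3.25%, 0.927% and 0.967%, and 0.770% and 2.97% of kept cells. The same 2 female libraries stood highest. The values below describe this cluster and test nothing.

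Car1, Ermap and Tspo2 were nearly limited to the erythroid-like cells. Over the 6 libraries this cluster held 94.9% to 97.6% of all Car1 UMIs, 92.5% to 97.1% of those of Ermap and 94.7% to 98.3% of those of Tspo2. It held 75.0% to 93.1% of Klf1, 68.7% to 93.3% of Rhd and 60.0% to 84.2% of Aqp1. The receptor and Gata1 were less limited to it, with 42.6% to 84.2% of Epor and 36.4% to 71.7% of Gata1. Next after it for Gata1 was a cycling-like cluster (cluster 9, led by histone genes), with a median of 19.4% of Gata1 UMIs, and for Epor a megakaryocyte-like cluster with 10.1%. Blvrb, at 20.1% to 67.9%, and Car2, at 4.49% to 26.2%, were spread over the other cells, with 13.8% of Car2 UMIs in cluster 9 and 13.3% in an HSC-like cluster (hematopoietic stem cell markers).

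Within the erythroid-like cells the libraries were much closer to each other than the whole sums were. Klf1 stood at 157 to 192 CPM in these cells and 0.619 to 1.27 outside them. The highest library exceeded the lowest 5.15-fold for Klf1 in the sums and 1.22-fold inside the cluster. Car1 stood at 3331 to 4588 CPM inside and 2.51 to 8.79 outside, and its spread over libraries was 6.09-fold in the sums and 1.38-fold inside. The same comparison gave 3.55-fold and 1.13-fold for Gata1, 3.90-fold and 1.37-fold for Epor, 6.60-fold and 1.21-fold for Ermap, and 6.74-fold and 1.30-fold for Tspo2. Car2 was the exception, at 1.35-fold in the sums and 1.36-fold inside. Outside the cluster the libraries also differed, by 2.95-fold for Gata1, 3.54-fold for Aqp1, 3.50-fold for Car1, 10.7-fold for Ermap and 5.99-fold for Tspo2. The spread there was 2.06-fold for Klf1, 2.19-fold for Epor, 1.78-fold for Rhd, 1.20-fold for Car2 and 1.18-fold for Blvrb. For Car1, Ermap and Tspo2 these are folds of low levels (0.133 to 1.43 CPM for Ermap), since nearly all their UMIs lay inside the cluster.

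With the erythroid-like cluster left out, an alternative added after seeing the data, 1 member passed for Ezh2 KO against Control: Aqp1 at -0.92 ± 0.19 (adjusted p = 0.0463, edgeR), beside 8.09% of all genes in that fit. In the fit that kept the cluster Aqp1 was at -0.46 ± 0.44 (adjusted p = 0.581). The summed level of the erythroid markers over 19 genes was 110 and 186 CPM in Control, 126 and 167 in the Ezh2 KO pair and 124 and 217 in the Jarid2 KO pair. Globin UMIs were at 23.8 and 57.4, 40.0 and 87.0, and 39.2 and 83.3 CPM. Each female library was above the male of its genotype in both sums, and the part these play in the members' levels was not tested.

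**Figure D2:**
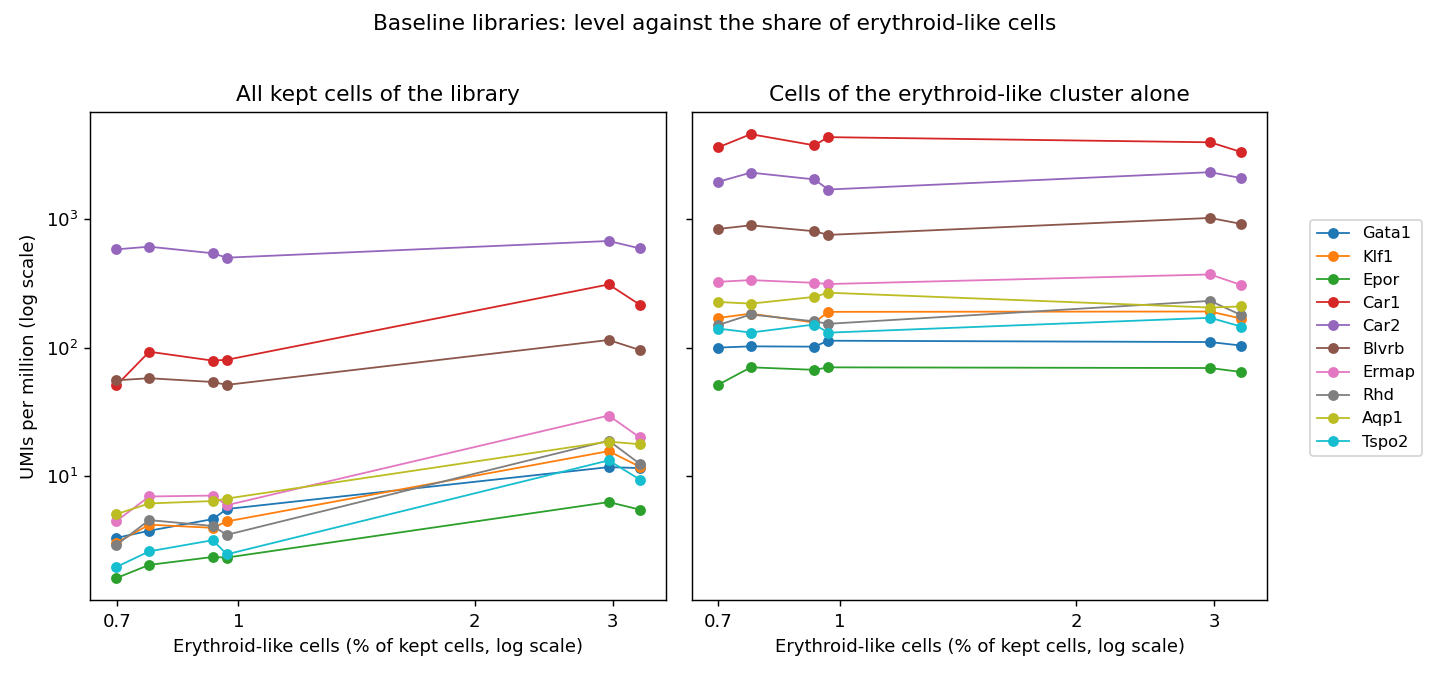
Baseline level of each gene (CPM, log axis) against the share of kept cells in the erythroid-like cluster (percent, log axis), over all kept cells on the left and over erythroid-like cells alone on the right, with each point 1 library and each colour 1 gene. On the left the values climb from the 4 libraries below 1% to the 2 near 3%, except Car2; on the right they are nearly flat.

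To separate how many cells carry a transcript from its level in them, each cell was thinned to 5000 UMIs and shallower cells were left out. Binomial intervals over cells cover counting error only. Cells of the lymphoid-like clusters served as the cell type that should lack red cell transcripts, with a median of 10162 to 11648 UMIs at baseline and 11318 to 17385 after transplantation, against 10764 to 12661 and 11786 to 17611 over all kept cells.

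Gata1 was found in 0.878% and 2.96% of thinned cells in Control, 1.09% and 1.56% in the Ezh2 KO pair and 0.854% and 2.16% in the Jarid2 KO pair. The lymphoid-like share was 0% to 0.231%, below every one of these. Klf1 was found in 0.517% and 2.11%, 0.654% and 0.848%, and 0.633% and 2.26%, with 0% to 0.242% of lymphoid-like cells. Epor was found in 0.564% and 1.37%, 0.592% and 0.683%, and 0.589% and 1.11%, with at most 0.0899% of lymphoid-like cells. These shares, like the sums, were highest in the females of Control and Jarid2 KO, while the UMIs per cell with a UMI stayed near 1 for Gata1 (1.11 to 1.25) and Epor (1.02 to 1.12), so that no level can be read for them. Without thinning, Gata1 was found in 2.20% and 6.48%, 2.84% and 3.29%, and 1.91% and 4.98% of kept cells.

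Car1 differed from the regulators in this split, since its mean over cells with a UMI was well above 1. Of these cells 36.4% to 71.2% had 2 or more UMIs, and in 3 of the 6 libraries most had a single UMI, while erythroid-like cells with Car1 held 15.8 to 21.2 UMIs. Car1 was found in 0.815% and 5.15% of thinned Control cells, 2.04% and 1.63% of Ezh2 KO and 1.94% and 6.56% of Jarid2 KO, with 12.9 and 9.32, 7.73 and 10.5, and 8.05 and 8.48 UMIs per cell with a UMI. Lymphoid-like cells had Car1 in 0.355% and 3.24%, 1.44% and 0.565%, and 0.985% and 3.59%, so in each library part of the share is at the level of cells that should lack it. Unthinned shares were 1.23% and 8.05%, 3.66% and 2.89%, and 3.26% and 11.5%. For Rhd the thinned share of 0.564% to 2.14% has to be set beside 0.473% to 1.16% of lymphoid-like cells, and in the female Ezh2 KO library it was the lower of the 2 (0.742% against 0.889%). Ermap, Aqp1 and Tspo2 were found in 0.376% to 2.87%, 1.06% to 3.62% and 0.298% to 1.55% of thinned cells, with the same 2 libraries highest. In lymphoid-like cells these shares were 0% to 1.10%, 0% to 0.315% and 0% to 0.231%. The highest lymphoid-like shares of Ermap, 0.926% and 1.10%, were those of the same 2 female libraries.

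Car2 was present in most baseline cells. Its thinned share was 82.9% and 81.5% in Control, 77.7% and 78.5% in the Ezh2 KO pair and 86.3% and 83.7% in the Jarid2 KO pair. The groups did not overlap, and the share of all genes that separate so is not given here. Lymphoid-like cells had Car2 in 47.0% and 50.5%, 50.8% and 52.3%, and 53.9% and 58.6%, below the whole library in all 6, and these cells made up 14.1% and 6.03%, 30.1% and 16.8%, and 6.06% and 5.86% of kept cells. The Ezh2 KO libraries thus had the lowest Car2 shares and the 2 largest lymphoid-like fractions, and the part of the second in the first was not tested. Unthinned, Car2 was found in 90.9% and 91.6%, 86.9% and 87.8%, and 92.0% and 90.5% of cells. The level per cell with Car2 was 3.45 to 3.73 UMIs in all 6 libraries. Blvrb was found in 17.5% to 20.3% of thinned cells and in 9.94% to 15.3% of lymphoid-like cells.

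The shares were tested by limma on the log2 odds over 15900 genes. Between Jarid2 KO and Ezh2 KO 1 of 10 members passed, beside 7.57% of all genes: Car2, at 0.67 ± 0.09 (adjusted p = 0.00904). For Ezh2 KO against Control 0 passed by limma (3 at an unadjusted p under 0.05), beside 6.54% of all genes, with Car2 at -0.37 ± 0.09 (adjusted p = 0.0575). For Jarid2 KO against Control 0 passed by limma (1 unadjusted), beside 0.289%, and 1 passed without either Ezh2 KO library (2.79% and 2.61% of all genes without the male and the female). The levels per cell with a UMI gave 0 of 10 members in each of the 3 contrasts by limma (2, 0 and 1 unadjusted for Jarid2 KO against Control, for Ezh2 KO against Control and for Jarid2 KO against Ezh2 KO), where 0.00% of genes passed in each. The Car2 share call was lost when the spread was not allowed to depend on the mean, an alternative added after seeing the data (0 members). Fits with 1 library left out rest on a lone library of that genotype, which the members share, so their calls are not separate observations. Leaving out the male Ezh2 KO library raised the count for Jarid2 KO against Ezh2 KO to 7, beside 4.77% of all genes, and that for Ezh2 KO against Control to 6, beside 4.00%. For the latter contrast 3 members passed without the female Ezh2 KO library (11.9% of all genes) and 1 without either Jarid2 KO library (8.31% and 8.24%).

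**Figure D3:**
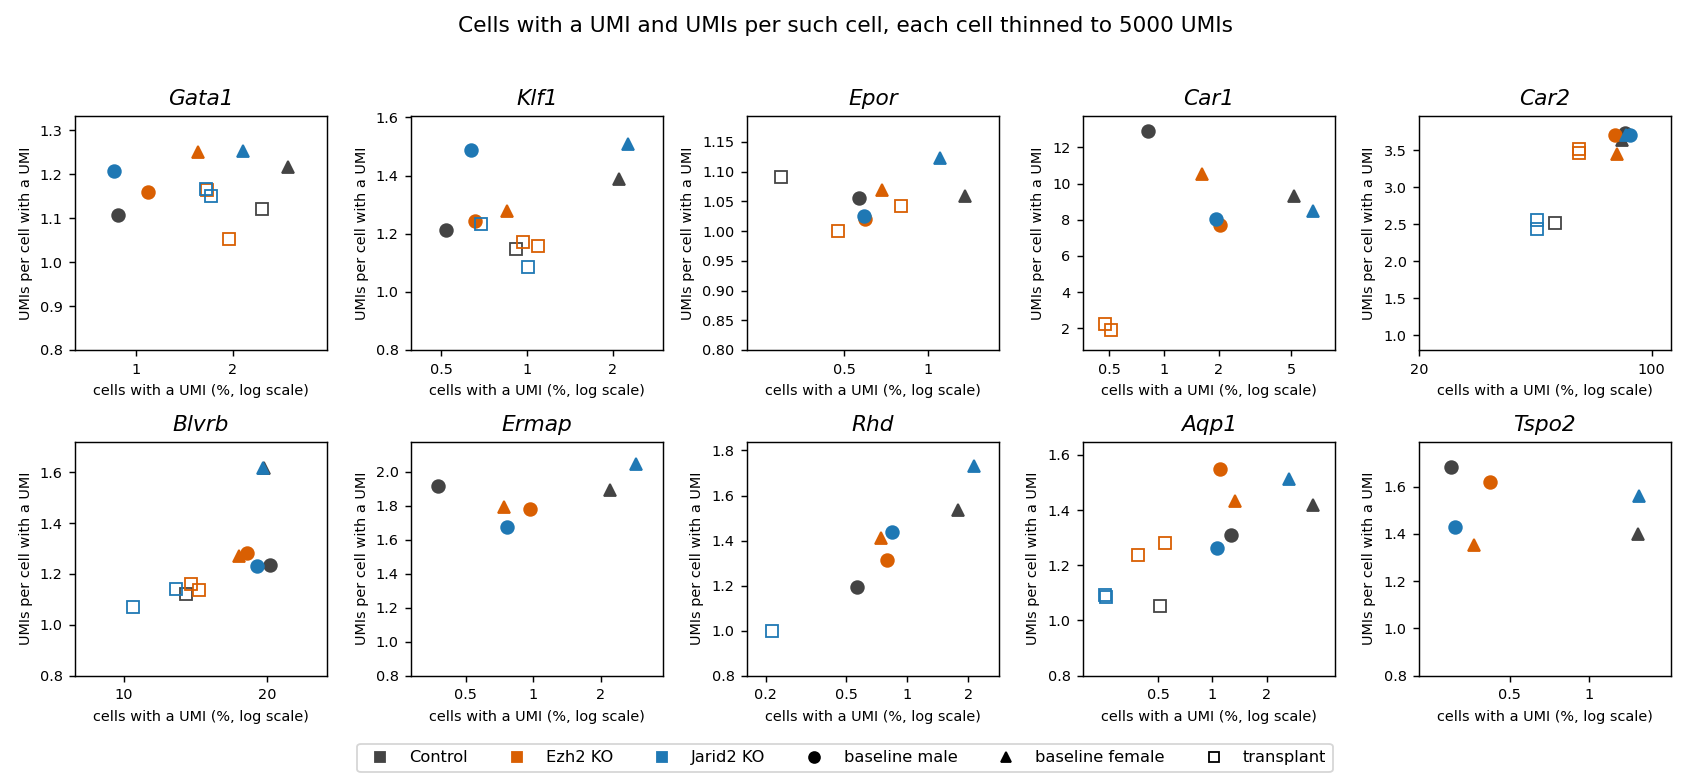
For each gene, UMIs per cell with a UMI against the percentage of cells with a UMI (log axis), each cell thinned to 5000 UMIs and each point 1 library, drawn where at least 10 thinned cells had a UMI. The points of most genes are spread along the share axis with little spread in level, while Car1 and Car2 lie lower on both axes in the transplant libraries drawn than at baseline, apart from the Car2 level of the 2 Ezh2 KO libraries. The Cell Ranger version also differs between the experiments.

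After transplantation the members were sparse apart from Car2 and Blvrb, no cluster qualified as erythroid-like under the same adjusted naming rule, and the libraries labelled Ezh2 KO stood apart. Baseline matrices were made with Cell Ranger 7.2.0 and transplant matrices with 6.1.2, so experiment and counting cannot be told apart in levels compared between experiments. Clusters were formed on cells of the lone Control, and knockout cells took the label of their nearest Control cells. A cell type absent from the Control could thus not form a cluster. Both Ezh2 KO libraries stood above the Control and above both Jarid2 KO libraries for 8 of 10 members, all but Gata1 and Rhd, beside 23.4% of the 17504 genes with at least 10 UMIs over the 5 libraries. In male cells alone all 9 members with at least 10 UMIs had this order, beside 20.9% of 16446 genes with that minimum. Ermap was below the minimum there and did not have the order. The members share the same libraries, so these orders are not separate observations. Against Control the Ezh2 KO difference passed for Car1, and against Ezh2 KO the Jarid2 KO libraries were lower for Car1, Car2, Epor and Tspo2. Of these, Tspo2 met the filter on low counts only through the Ezh2 KO pair. Jarid2 KO and Control did not differ by the test for any of the 9 members tested, and Ermap was too low for it.

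Car1 was at 0.207 CPM in the Control, 1.35 and 1.55 in the Ezh2 KO pair and 0.325 and 0.257 in the Jarid2 KO pair, from 14, 151, 125, 30 and 22 UMIs. Epor was at 0.532 CPM in Control, 1.38 and 1.10 in the Ezh2 KO pair and 0.249 and 0.245 in the Jarid2 KO pair. Car2 was at 203 CPM, 317 and 320, and 173 and 177. For Car2 and Epor both Jarid2 KO libraries lay below the Control, and for Car1 both lay above it. Tspo2 was counted at 4 UMIs in Control, 28 and 23 in the Ezh2 KO pair and 7 and 6 in the Jarid2 KO pair, which are 0.0591, 0.251 and 0.285, and 0.0758 and 0.0701 CPM.

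Gata1 and Klf1 varied less between the transplant libraries than Epor did, a comparison that was not tested. Gata1 was at 4.91 CPM in the Control, 4.60 and 3.93 in the Ezh2 KO pair and 3.20 and 2.99 in the Jarid2 KO pair. The groups were in descending order without overlap, and the share of all genes with such an order is not given here. In male cells alone the order was another: Gata1 was at 3.63 CPM in the Control, below both Ezh2 KO libraries (4.64 and 3.83) and above both Jarid2 KO libraries (2.97 and 2.53). Klf1 was at 1.73, 2.11 and 2.10, and 1.20 and 1.73 CPM. Blvrb was at 25.8, 27.2 and 28.9, and 20.7 and 26.2 CPM, and Aqp1 at 0.858, 1.08 and 0.881, and 0.639 and 0.549. In male cells alone Klf1 was at 1.78, 2.16 and 1.92, and 1.00 and 1.65 CPM, Blvrb at 24.8, 26.6 and 28.3, and 19.6 and 24.5, and Aqp1 at 0.712, 1.07 and 0.790, and 0.750 and 0.743. Over all cells the Ezh2 KO pair was highest for Klf1 and Blvrb and 1 Jarid2 KO library was level with the Control or above it.

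Ermap and Rhd were close to absent. Ermap had 1 UMI in Control, 8 and 3 in the Ezh2 KO pair and 2 and 2 in the Jarid2 KO pair and was too low for the test. Its ratio to the Control was 4.85 and 2.52 in Ezh2 KO with counting intervals of 0.650 to 215 and 0.202 to 132, so no difference was detectable at this depth. In male cells alone Ermap had 1, 3 and 3, and 1 and 1 UMIs, and its order turned over, with the Control at 0.0712 CPM above Ezh2 KO at 0.0344 and 0.0504. Rhd had 3 UMIs in Control, 25 and 23 in the Ezh2 KO pair and 20 and 28 in the Jarid2 KO pair. Its ratios to the Control were 5.05 (1.54 to 26.2) and 6.43 (1.94 to 33.5) in Ezh2 KO and 4.88 (1.45 to 25.6) and 7.37 (2.28 to 37.9) in Jarid2 KO. In male cells alone Rhd had 1, 24 and 13, and 3 and 5 UMIs, and every ratio to the Control had a counting interval that included 1: 3.87 (0.631 to 159) and 3.07 (0.461 to 131) in Ezh2 KO and 1.51 (0.121 to 79.1) and 2.37 (0.265 to 112) in Jarid2 KO. The lymphoid-like cluster 5 held more of the Rhd UMIs than any other cluster, with a median of 33.3% and at most 36.0%, and up to 1.28% of thinned lymphoid-like cells had a UMI of Rhd. In all cells the Control was the low library, but it is a single library, and the edgeR test against it did not pass (2.39 ± 0.66, adjusted p = 0.118, and 2.51 ± 0.66, adjusted p = 0.304).

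The transplant sums were tested by edgeR over 15758 genes, with the lone Control assumed to vary like the knockouts, and 9 of the 10 members passed the filter on low counts. For Ezh2 KO against Control 1 of 9 passed (5 unadjusted), beside 4.84% of all genes, and 2 by DESeq2, beside 8.90%. By edgeR it was Car1, at 2.72 ± 0.37 (adjusted p = 0.0129). Car2 was at 0.57 ± 0.14 (adjusted p = 0.0926) and passed by DESeq2 at 0.56 ± 0.11 (adjusted p = 1.6e-05) and by edgeR without either Jarid2 KO library (0.57 ± 0.11, adjusted p = 0.0315, without replicate 1). For Jarid2 KO against Control 0 of 9 passed by edgeR (3 unadjusted, 0 by DESeq2), beside 0.336% of all genes.

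Between Jarid2 KO and Ezh2 KO 4 of 9 passed, all lower in Jarid2 KO, where 12.0% of all genes passed in either direction and 7.67% were lower. They were Car1 at -2.27 ± 0.26 (adjusted p = 0.00373), Epor at -2.30 ± 0.27 (0.00403), Car2 at -0.83 ± 0.12 (0.00715) and Tspo2 at -1.82 ± 0.43 (0.0422). Tspo2 met the filter on low counts only through the Ezh2 KO pair, so its entry to the test depended on the group where it is high. The median over the 9 members was -0.69 beside 0.00 over all genes. Gata1 was at -0.43 ± 0.16 (adjusted p = 0.14) and Klf1 at -0.50 ± 0.18 (0.14). The Tspo2 call did not hold by DESeq2 (adjusted p = 0.127), under the strict cell filter (0.13) or with any 1 knockout library left out (0.101 to 0.136), and the Car2 call did not hold without Ezh2 KO replicate 1 (-0.80 ± 0.20, adjusted p = 0.0536).

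In male cells alone, Car2 was at 209 CPM in Control, 312 and 309 in the Ezh2 KO pair and 168 and 175 in the Jarid2 KO pair, and Epor at 0.641, 1.47 and 1.06, and 0.250 and 0.236. Both orders were those of all cells, and Car2, Epor and Car1 passed by edgeR there too as lower in Jarid2 KO than in Ezh2 KO, beside 5.40% of all genes lower in that fit. Tspo2 had 0, 23 and 20, and 0 and 4 UMIs in male cells and was too low for the test there. Car1 rested on 1 UMI in the male Control cells against 126 and 112 in the Ezh2 KO pair and 5 and 14 in the Jarid2 KO pair, and its call against Control did not hold there (4.42 ± 0.88, adjusted p = 0.0688, edgeR). The ratios of the Ezh2 KO libraries to that Control were 20.3 and 26.5, with counting intervals of 3.58 to 808 and 4.65 to 1054.

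Other cell types also differed between these libraries. Lymphoid-like cells made up 7.72% of the Control, 21.5% and 18.6% of Ezh2 KO and 8.84% and 9.50% of Jarid2 KO, and myeloid-like cells 22.3%, 11.1% and 10.2%, and 27.1% and 24.9%. Within the latter, cluster 8 had a median of only 1351 UMIs in Control cells against 14789.5 over all of them, was led by AY036118, Ly6c2 and Gm42418, and held 11.0%, 2.41% and 1.76%, and 10.5% and 4.83% of cells. Eosinophil markers summed to 59.9 CPM in Control, 11.4 and 9.19 in the Ezh2 KO pair and 82.7 and 109 in the Jarid2 KO pair. The erythroid markers summed to 90.9, 111 and 151, and 70.3 and 66.8 CPM, and globin UMIs to 16.6, 47.5 and 83.3, and 9.54 and 4.93. Erythroid markers and globins were thus highest in the same Ezh2 KO libraries as Car1, Car2 and Epor, and these libraries also had the smallest shares of barcodes over the mitochondrial limit and of cluster 8. The part of these in the members' sums was not tested.

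Thinned to 5000 UMIs, the transplant difference in Car2 was seen in the share of cells. Car2 was found in 51.3% of Control cells, 60.4% and 60.6% of Ezh2 KO and 45.1% and 45.3% of Jarid2 KO, with 2.52, 3.51 and 3.46, and 2.44 and 2.56 UMIs per cell with a UMI. Share and level both put the Ezh2 KO pair above the other 3 libraries. In lymphoid-like cells the Car2 share was 30.4%, 46.6% and 42.5%, and 30.2% and 31.8%. Unthinned shares were 65.8%, 77.8% and 74.3%, and 62.4% and 65.5%.

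Epor was found in 0.295% of thinned Control cells, 0.80% and 0.474% of Ezh2 KO and 0.206% and 0.107% of Jarid2 KO, with 0% to 0.10% of lymphoid-like cells. For Epor the binomial intervals of the Control and of Ezh2 KO replicate 1 did not overlap, and those of the Control and of replicate 2 did. Gata1 was found in 2.46%, 1.94% and 1.66%, and 1.65% and 1.71%, with 0.10% to 0.317% of lymphoid-like cells, and the interval of the Control overlapped those of both Ezh2 KO libraries. Klf1 was found in 0.910%, 1.09% and 0.967%, and 0.688% and 1.00%, and in 1.20% of lymphoid-like Control cells (4 of 332, exact binomial interval 0.329% to 3.06%), which is not below the Control share. Blvrb was found in 13.5%, 13.8% and 14.4%, and 10.4% and 12.9%, and in 7.53%, 8.56% and 9.11%, and 6.98% and 10.4% of lymphoid-like cells, so most of each share is at the level of cells of another type. Car1 was found in 0.0803%, 0.477% and 0.511%, and 0.161% and 0.171% of thinned cells, and in 0%, 0.317% and 0%, and 0.233% and 0% of lymphoid-like cells, where the 0.233% is 1 of 430 cells of Jarid2 KO replicate 1 (exact binomial interval 0.00589% to 1.29%) and does not lie below that library's own share. In the thinned Control 0 of 3735 cells had a UMI of Ermap or Rhd. With 3 cells as the floor for 0, not an exact binomial bound, up to 0.0803% of cells may have a UMI at this depth. This sets no limit on cells that express these genes.

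By limma on the shares, with 6 of 10 members above the cell minimum and 13064 genes tested, 2 members were lower in Jarid2 KO than in Ezh2 KO, beside 8.56% of all genes. These were Car2 at -0.89 ± 0.21 (adjusted p = 0.01) and Epor at -1.97 ± 0.48 (adjusted p = 0.014). Epor met the cell minimum only in the Control and the Ezh2 KO pair, with 9 and 5 cells in the Jarid2 KO pair. Without Ezh2 KO replicate 1 or 2 Car2 did not pass, at -0.90 ± 0.39 (adjusted p = 0.267) and -0.89 ± 0.39 (0.251). Epor was below the cell minimum and untested in both of those fits and without the Control, and it did not pass without Jarid2 KO replicate 2, at -1.53 ± 0.45 (adjusted p = 0.0738). Against Control 0 members passed by limma for Ezh2 KO (1 unadjusted, beside 4.98% of all genes) and 0 for Jarid2 KO (1 unadjusted, beside 0.697%). For the level in cells with a UMI 0 members passed by limma in the 3 contrasts: 0 of 5 for Jarid2 KO against Control (0 unadjusted, 0.446% of all genes), 0 of 6 for Ezh2 KO against Control (2 unadjusted, 0.405%) and 0 of 5 for Jarid2 KO against Ezh2 KO (2 unadjusted, 0.00%). Car2 was at 0.47 ± 0.07 (adjusted p = 0.334) and -0.48 ± 0.06 (adjusted p = 0.246) in the last 2.

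Over the 16 transplant clusters the Ezh2 KO pair was above the other 3 libraries in 8 for Car2 and in 6 for Epor. It was so in 4 each for Gata1, Klf1, Car1 and Aqp1, in 3 for Blvrb and in 1 each for Ermap, Rhd and Tspo2. The share of all genes with this order is not given here. The clusters given here are those where a test of the gene passed, so their order is no separate observation. In the HSC-like cluster 1, led by F2r, Socs3 and Esam, Car2 was at 436 CPM in Control, 703 and 681 in the Ezh2 KO pair and 389 and 415 in the Jarid2 KO pair. In the lymphoid-like cluster 5, led by Cmah, Ly6d and Dntt, it was at 85.6, 184 and 157, and 76.9 and 89.2, where 1 Jarid2 KO library was above the Control, and in the cycling-like cluster 6 at 308, 412 and 392, and 262 and 292. Epor was at 0.806, 2.81 and 1.93, and 0.158 and 0.470 CPM in cluster 1, from 7, 47, 27, 2 and 5 UMIs, and at 1.03, 2.52 and 2.90, and 0.332 and 0.677 in cluster 6.

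Among 50 tests of members per contrast over 14 clusters (edgeR), 8 passed for Jarid2 KO against Ezh2 KO (2.89% of all gene and cluster tests), 2 for Ezh2 KO against Control (1.23%) and 0 for Jarid2 KO against Control (0.0998%). In cluster 1 the Jarid2 KO libraries were below Ezh2 KO for Car2 at -0.80 ± 0.13 (adjusted p = 0.0103), Epor at -2.96 ± 0.53 (0.0137), Blvrb at -0.50 ± 0.11 (0.0311) and Car1 at -2.92 ± 0.70 (0.0472), beside 5.59% of all genes. The Car1 call there rests on few UMIs, since cluster 1 held 4.55% to 35.7% of a library's 14 to 151 Car1 UMIs. In cluster 6 Car2 was at -0.59 ± 0.12 (0.0401) and Epor at -2.51 ± 0.42 (0.0164), beside 3.49%. In cluster 5 Car2 was at -1.05 ± 0.13 (0.00326), beside 9.38%, and against Control Ezh2 KO was higher for Car2 at 0.92 ± 0.17 (0.025), beside 4.61%. Over the 3 contrasts 10 of 150 tests of members passed, beside 1.41% of all gene and cluster tests. Without Ezh2 KO replicate 1 it was 4 of 147 beside 0.923%, and without replicate 2 it was 7 of 153 beside 1.40%. Without Jarid2 KO replicate 1 it was 14 of 153 beside 1.90%, and without replicate 2 it was 17 of 153 beside 1.67%. Without the Control the 1 contrast left gave 9 of 47 beside 3.16%.

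The mast or basophil-like cluster 3, led by Csrp3, Ms4a2 and Fcer1a, held 1.26% to 2.50% of transplant cells and 7.14% to 70.0% of a library's Car1 UMIs. Knockout cells took this label from their nearest Control cells, so it does not show of which type their cells with Car1 are. Car1 was at 0.683 CPM in this cluster in Control, 42.8 and 60.9 in the Ezh2 KO pair and 20.3 and 6.62 in the Jarid2 KO pair. The Control value is 1 UMI, so the ratios of the Ezh2 KO libraries to it, 62.8 and 89.2, have counting intervals of 10.8 to 2521 and 15.3 to 3595. By edgeR Car1 passed in this cluster for Ezh2 KO against Control (adjusted p = 0.000243, beside 0.341% of all genes) and for Jarid2 KO against Ezh2 KO (-1.94 ± 0.36, adjusted p = 0.00866, beside 0.660%). Gata1 was there at 45.1, 54.5 and 36.0, and 54.0 and 53.9 CPM, lowest and highest in the Ezh2 KO pair, and Klf1 was at 16.4, 22.5 and 41.0, and 31.8 and 29.3.

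The cycling-like cluster 6 held 27.7% to 34.0% of Gata1 UMIs and 23.1% to 35.9% of Klf1 UMIs after transplantation, and cluster 3 held 9.15% to 22.3% and 13.2% to 29.7%. The remaining Gata1 and Klf1 UMIs were spread over the other clusters. In the eosinophil-like cluster Gata1 was at 58.0, 61.8 and 69.3, and 37.0 and 35.1 CPM, over only 15, 2, 4, 11 and 15 cells. No test was run there.

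**Figure D4:**
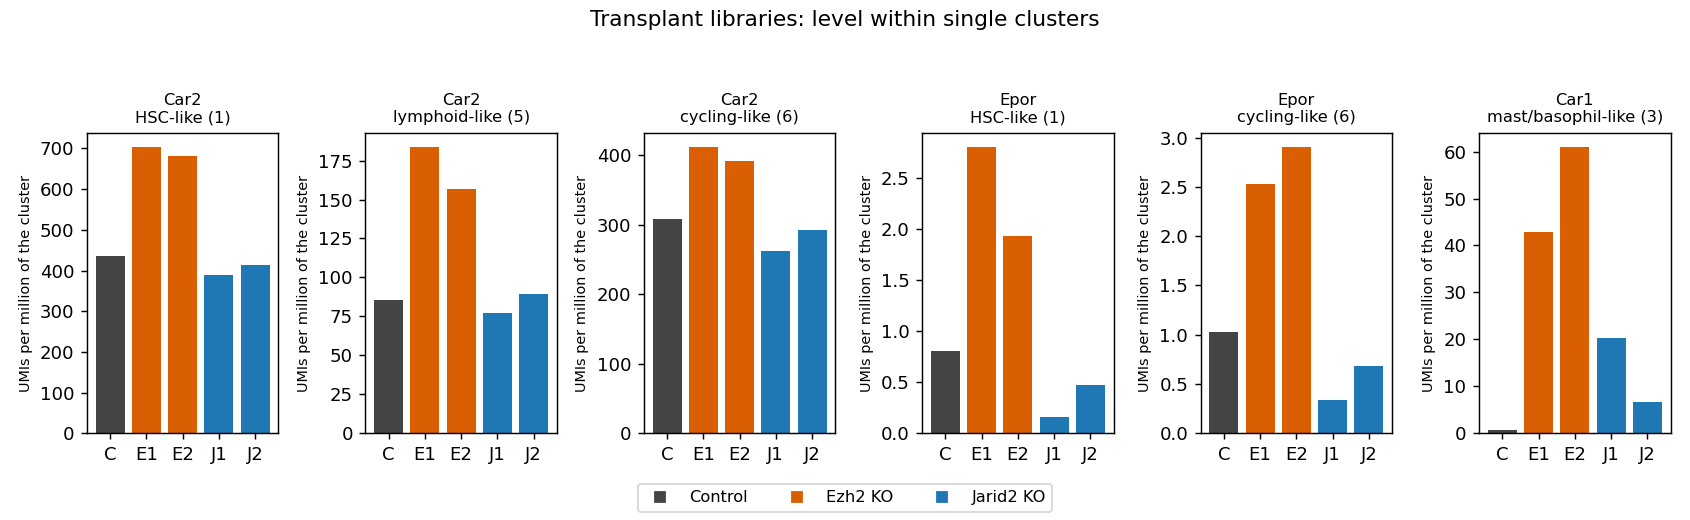
Level of single genes in single clusters of the transplant libraries, in CPM of the cluster, with each bar 1 library (C Control, E1 and E2 Ezh2 KO, J1 and J2 Jarid2 KO). Car2 and Epor are higher in E1 and E2 than in the other 3 libraries in each cluster drawn, and Car1 in the mast or basophil-like cluster is lowest in the Control. Of all 16 transplant clusters, E1 and E2 are the highest in 8 for Car2 and in 6 for Epor.

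Inside the baseline clusters 78 tests of members per contrast over 17 clusters gave 2 calls for Ezh2 KO against Control (1.44% of all gene and cluster tests), 0 for Jarid2 KO against Control (0.659%) and 3 for Jarid2 KO against Ezh2 KO (1.87%, edgeR). Car2 in a lymphoid-like cluster (cluster 10, led by Id3, Cd79a and Pax5) was at 103 and 104 CPM in Control, 144 and 198 in the Ezh2 KO pair and 123 and 137 in the Jarid2 KO pair. There it was higher in Ezh2 KO than in Control (0.74 ± 0.10, adjusted p = 8.03e-05, beside 10.9% of all genes) and lower in Jarid2 KO than in Ezh2 KO (-0.42 ± 0.10, adjusted p = 0.0125, beside 9.70%). This direction is opposite to that of Car2 in the whole baseline libraries. Car1 in the cycling-like cluster 9 was at 12.7 and 8.29, 2.98 and 4.23, and 8.52 and 12.4 CPM, lower in Ezh2 KO than in Control (-1.51 ± 0.27, adjusted p = 0.0323, beside 1.46%) and higher in Jarid2 KO than in Ezh2 KO (1.49 ± 0.27, adjusted p = 0.0238, beside 3.49%). Gata1 in the cycling-like cluster 14 was at 2.67 and 6.22, 4.46 and 6.28, and 1.56 and 2.69 CPM, lower in Jarid2 KO than in Ezh2 KO (-1.37 ± 0.31, adjusted p = 0.0312, beside 2.33%). Over the 3 contrasts 5 of 234 tests of members passed, beside 1.32% of all gene and cluster tests. With the male or else the female Control left out, 17 of 279 and 18 of 270 passed, beside 1.84% and 1.92%. With Ezh2 KO libraries left out in the same way, 18 of 279 and 11 of 276 passed, beside 1.50% and 1.43%. For Jarid2 KO libraries the counts were 11 of 288 and 4 of 264, beside 1.76% and 1.39%.

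Over both experiments together, with experiment as a term, 0 of 10 members passed in the sums by edgeR for Jarid2 KO against Control, for Ezh2 KO against Control and for Jarid2 KO against Ezh2 KO, with 0 below an unadjusted p of 0.05 and none called by DESeq2 (0) in each, beside 0.00%, 2.95% and 7.72% of all genes. In the shares 0 passed by limma as well, 0 unadjusted, beside 0.00%, 1.66% and 3.85%. The difference of the genotype effect between experiments passed for 1 member. Car2 was at -1.11 ± 0.14 (adjusted p = 0.00824, edgeR) for Jarid2 KO against Ezh2 KO, beside 2.46% of all genes, since both Jarid2 KO libraries were above both Ezh2 KO libraries at baseline and below them after transplantation. The other 2 contrasts gave 0 by edgeR (1 unadjusted in each; 0 by DESeq2 for Jarid2 KO against Control and 1 for Ezh2 KO against Control, the latter beside 1.88% of all genes), beside 0.00% and 0.349%. The shares showed the same Car2 difference, at -1.57 ± 0.17 (adjusted p = 0.00328, limma), beside 1.79% of all genes, and 2 members passed without transplant Jarid2 KO replicate 2, beside 3.33%. The shares gave 0 by limma in the other contrasts (2 unadjusted in each), beside 0.00% for Jarid2 KO against Control and 0.703% for Ezh2 KO against Control.

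At baseline most members had a higher level in cells gated CD150-high than in cells gated CD150-low and CD135-high in all 6 libraries, a comparison that changes more than 1 surface protein at once. CD150 marks stem cells and the megakaryocyte and erythroid side of the KSL fraction, CD48 rises as cells leave the stem cell state, and CD135 (FLT3) marks the lymphoid and myeloid side. Each antibody was split into 3 equal parts within a library, gates used the upper and lower parts, and each difference in log2(CPM + 1) was taken within the library, with an exact two-sided sign-flip permutation test over 6 libraries, whose smallest possible p is 0.03125. After adjustment over 27441 tests that smallest p became 0.0589, so no gene could pass, and the counts below give how many libraries moved the same way.

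In CD150-high CD48-high cells against CD150-low CD135-high cells 8 of 10 members were higher in all 6 libraries, all but Car2 and Rhd, beside 19.9% of 9147 genes. These are the genes of at least 10 CPM on average and the members, several of which lie below that level, so the background is mostly of more abundant genes. Gata1 was 3.81 ± 1.11 higher (SD over 6 libraries), Klf1 3.01 ± 1.79 and Epor 2.64 ± 1.39. Car1 was 4.83 ± 2.67 higher and Aqp1 3.28 ± 1.56. Car2 was at 0.18 ± 0.55, higher in 4 of 6 libraries, and at 0.66 ± 0.46, higher in 5 of 6, where gates were set on antibody counts per total. In CD150-high CD48-low cells against the same CD150-low cells 9 of 10 were higher in all 6 libraries, all but Tspo2, beside 28.5% of those genes, with Gata1 at 2.54 ± 0.97, Epor at 2.46 ± 0.79, Blvrb at 1.56 ± 0.46 and Car2 at 1.00 ± 0.21. Between the 2 CD150-high gates 0 of 10 members moved the same way in all 6 libraries, beside 53.6% of those genes that did so in either direction, and Car2 was at -0.82 ± 0.65, lower in the CD48-high cells of 5 of 6. With antibody counts per total Car2 was there at -0.44 ± 0.54, lower in 4 of 6, while Gata1 went from 1.27 ± 1.64 to 2.19 ± 1.35 and Car1 from 0.98 ± 4.87 to 2.49 ± 4.86.

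Car1 was at 92.6 and 382 CPM in the CD48-high gate of Control, 4.02 and 16.8 in the Ezh2 KO pair and 474 and 1319 in the Jarid2 KO pair. In the CD48-low gate it was at 22.5 and 109, 378 and 167, and 4.29 and 38.5. Both Ezh2 KO libraries had more Car1 in the CD48-low gate, and the other 4 had more in the CD48-high gate. This was not tested, and the gates are relative to each library's own cells. The erythroid-like cells stood at a median CD48 percentile of 29.2 and 38.2 in the Ezh2 KO libraries, lower than in the other 4. Their own median CD48 antibody count was 1075 and 1104 there, against 1077 and 879 in Control and 883.5 and 835 in Jarid2 KO, whereas the median over all cells was 1518 and 1146 against 840 and 628, and 538 and 422. The part of this difference over all cells in the lower percentiles was not tested.

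Across the 6 libraries the median erythroid-like cell lay at percentile 70.2 to 93.3 of its library for CD117 (c-Kit), 76.3 to 86.0 for CD150 and 53.4 to 77.2 for CD201 (EPCR). It lay at 29.2 to 59.8 for CD48, 8.92 to 16.2 for CD135 and 4.64 to 14.0 for Sca1. The antibody feature read as Sca1 was picked by the letters PE in its name, so the name Sca1 was assigned here. These percentiles are of centred log-ratios. On plain antibody counts Sca1 was at 16.1 to 34.7, CD135 at 13.7 to 30.5 and CD201 at 36.1 to 80.0, while CD117 was at 76.9 to 91.8 and CD150 at 76.5 to 88.4. HSC-like cells were at 81.0 to 88.2 for CD201 and 74.1 to 82.4 for Sca1, and megakaryocyte-like cells at 85.7 to 93.3 for CD150. On both scales the median erythroid-like cell was in the upper part of its library for c-Kit and CD150 and in the lower part for Sca1, less far down on counts.

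**Figure D5:**
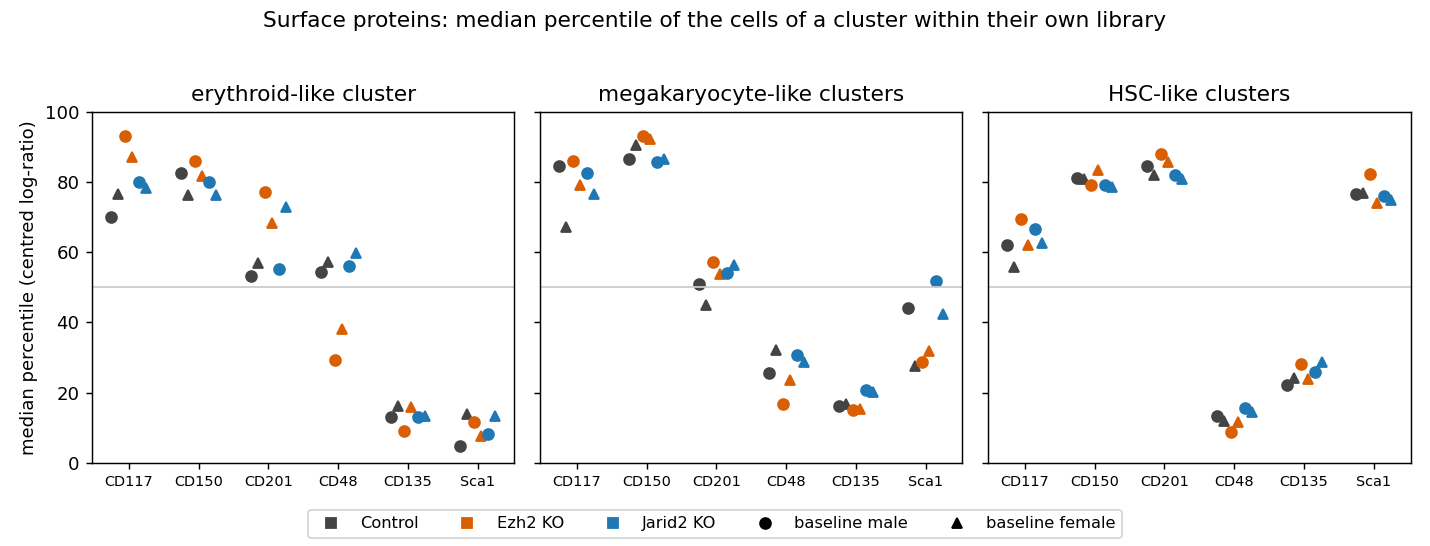
Median percentile of 6 surface proteins for erythroid-like, HSC-like and megakaryocyte-like cells within their own baseline library, with each point 1 library. Erythroid-like cells are high for CD117 and CD150 and low for CD135 and Sca1, and their CD48 percentiles are lowest in the Ezh2 KO libraries, where the median CD48 count of all cells is highest. Sca1 is the antibody feature with PE in its name.

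Genes of the same pathways, on lists written with earlier results of these data known, were tested in the same fits. Of 12 transcription factor partners tested, 3 were higher in Jarid2 KO than in Ezh2 KO at baseline: Tal1 at 0.40 (adjusted p = 0.0328), Nfe2 at 0.28 (0.0352) and Zbtb7a at 0.25 (0.0369), with none lower, beside 5.91% of all genes called in that contrast. The median of the list was 0.17 beside 0.01 over all genes. After transplantation only Gfi1b, a repressor that works with GATA1, passed among the 12: it was higher in Ezh2 KO than in Control (0.83, adjusted p = 0.0162) and lower in Jarid2 KO than in Ezh2 KO (-0.57, 0.0134), so 1 of 12 stood beside 4.84% and 12.0% of all genes. Gfi1b stood at 8.43 CPM in the Control, 15.7 and 16.0 in the Ezh2 KO pair and 10.4 and 10.6 in the Jarid2 KO pair.

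Of 10 erythropoietin signalling genes tested, Socs2 and Cish, feedback inhibitors induced through STAT5, were higher in transplant Ezh2 KO than in Control at 1.38 (adjusted p = 0.00671) and 1.03 (0.0125) and lower in Jarid2 KO than in Ezh2 KO at -1.04 (0.00364) and -0.51 (0.028), which is 2 of 10 beside 4.84% and 12.0% of all genes. Socs2 stood at 2.40 CPM in Control, 6.74 and 6.44 in the Ezh2 KO pair and 3.02 and 3.26 in the Jarid2 KO pair. At baseline 1 of the 10 passed, the survival factor Bcl2l1, lower in Jarid2 KO than in Ezh2 KO at -0.61 (0.0489), beside 5.91% of all genes. Cytokines other than erythropoietin act through the same inhibitors.

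Of 16 heme and iron genes, 1 was lower for Ezh2 KO against Control at baseline, the transferrin receptor 2 gene Tfr2 at -0.38 (adjusted p = 0.0329), beside 3.47% of all genes. Between Jarid2 KO and Ezh2 KO Fech, which inserts iron into heme, was higher at 0.35 (0.0488) and Hmox1, which breaks heme down, was lower at -2.0 (0.012), beside 5.91%. Hmox1 was at 2.92 and 4.12 CPM in Control, 4.14 and 5.92 in the Ezh2 KO pair and 0.926 and 1.67 in the Jarid2 KO pair. Control and Ezh2 KO nearly met, at 4.12 and 4.14 CPM, and Hmox1 passed in neither contrast with Control (edgeR). After transplantation 1 of 15 tested passed, the mitochondrial transporter Abcb10, at 0.63 (0.00958) for Jarid2 KO against Ezh2 KO, beside 12.0% of all genes. Such single calls on a list of this size are near the share over all genes.

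Of 4 globin genes tested, the beta-globin genes Hbb-bt and Hbb-bs were lower in transplant Jarid2 KO than in Ezh2 KO, at -3.22 (adjusted p = 0.0056) and -1.74 (0.0222), beside 7.67% of all genes lower. Their reads can be shared between near-identical copies, so the split between the 2 is uncertain. Hbb-bt was at 14.9 CPM in Control, 45.1 and 81.6 in the Ezh2 KO pair and 8.68 and 4.34 in the Jarid2 KO pair. None of the 4 passed at baseline in any contrast by edgeR.

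Of the red cell membrane genes (15 tested at baseline, 12 after transplantation), glycophorin C (Gypc) was higher in Jarid2 KO than in Ezh2 KO at baseline at 0.25 (adjusted p = 0.0385), the 1 call of this list there beside 5.91% of all genes. After transplantation Sptb, the beta chain of erythroid spectrin, had 0 UMIs in Control, 43 and 26 in the Ezh2 KO pair and 4 and 2 in the Jarid2 KO pair. Sptb met the filter on low counts only through the Ezh2 KO pair. Against a floor of 3 UMIs in the Control library it was at least 8.69-fold and 7.27-fold higher in the 2 Ezh2 KO libraries (adjusted p = 0.027, edgeR), and it was lower in Jarid2 KO than in Ezh2 KO at -3.32 (0.0108), the 1 call of the list in each contrast beside 4.84% and 12.0% of all genes. Slc4a1, the anion exchanger band 3, had 2 to 11 UMIs per baseline library and 0 in every transplant library.

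Of 20 early erythroid priming genes tested at baseline (16 after transplantation), Apoe and Aqp9 were lower in baseline Ezh2 KO than in Control at -0.67 (adjusted p = 0.0268) and -0.60 (0.031), and Aqp9 was higher in Jarid2 KO than in Ezh2 KO at 0.50 (0.0315), beside 3.47% and 5.91% of all genes. After transplantation Apoe was again lower in Ezh2 KO than in Control (-1.23, 0.0048), while Trib2 was higher in both knockouts than in Control, at 2.45 (0.00199) for Ezh2 KO and 2.10 (0.0156) for Jarid2 KO, beside 4.84% and 0.336% of all genes. Trib2 was the only gene on these lists to pass for Jarid2 KO against Control in either experiment, and it stood at 0.739 CPM in Control, 4.30 and 4.25 in the Ezh2 KO pair and 3.12 and 3.46 in the Jarid2 KO pair. Between Jarid2 KO and Ezh2 KO 3 genes of this list were higher (Apoe, Rgcc and Cd36, at 0.52, 0.90 and 1.17) and 3 lower (Samd14, Cited4 and Mfsd2b, at -1.32, -0.70 and -0.64), beside 12.0% of all genes called and 7.67% called lower. The priming genes were therefore split in direction, with a list median of -0.19 beside 0.00 over all genes.

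With both experiments in 1 fit (edgeR), 3 genes of these lists passed for Ezh2 KO against Control, beside 2.95% of all genes: Socs2 at 1.27 (adjusted p = 0.00328) and Cish at 0.74 (0.0295) were higher and Apoe at -0.93 (0.0214) was lower. For Jarid2 KO against Ezh2 KO 4 of 10 erythropoietin signalling genes passed, beside 7.72% of all genes. Socs2 at -0.85 (0.00637) and Bcl2l1 at -0.53 (0.0114) were lower, and the receptor's kinase Jak2 at 0.16 (0.0467) and the stem cell factor receptor Kit at 0.23 (0.0495) were higher. In the same contrast 2 of 12 partners (Nfe2 at 0.21 and Zbtb7a at 0.21), 2 of 16 heme and iron genes (Fech at 0.28 and Abcb10 at 0.41) and 1 of 15 membrane genes (Gypc at 0.23) were higher. Jarid2 KO against Control gave 0 on these lists by edgeR. The difference between experiments passed for 1 list gene, Rgcc, at 1.39 (adjusted p = 0.0236) for Jarid2 KO against Ezh2 KO, beside 2.46% of all genes.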

How the data were processed

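Deposited counts of UMIs per gene and cell barcode (10x Chromium 3′ kits, per the labels' protocols) were used for 11 gene-expression libraries, with antibody counts for 6 of them. The submitters' processing notes name Cell Ranger 3.1.0, Seurat 3.0, Partek and mm10, while the file headers name Cell Ranger 7.2.0 for the baseline and 6.1.2 for the transplant matrices. CUT&Tag libraries are not analysed here. The members and gene lists were chosen with earlier results of these data known.

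Cells needed at least 1000 UMIs, 500 genes and at most 10% mitochondrial UMIs, and the highest doublet scores were removed at 0.8% per 1000 barcodes. Counts were summed per library and tested with edgeR 4.0.16 (quasi-likelihood, TMM, filterByExpr; DESeq2 1.42.0 as the alternative) at an adjusted p of 0.05. On simulated data with gene-wise spread and this few libraries edgeR made false calls above that rate, so its adjusted p-values are too small to be taken at face value near the threshold. For edgeR the value after ± is the size of the log2 fold change divided by the square root of its F statistic. It therefore restates the test and is not an interval for low counts. For limma and DESeq2 it is the standard error of the fit. Baseline fits had sex as a term, and Ezh2, Jarid2 and Xist were checked in every library. Shares and levels used limma 3.58.1 after thinning to 5000 UMIs, tested for genes with at least 10 cells with a UMI in at least 3 libraries. The prior spread depends on the mean; this was chosen after simulated data and after the untrended results had been seen. Cells were clustered on Control cells (Leiden, resolution 1, scanpy 1.11.5), labels were passed to the other cells by nearest neighbours, the rule for naming clusters was adjusted after they had been seen, and clusters with at least 30 cells in each library were tested. Named genes are the 10 members, label checks, and list genes that passed over all genes, at most 6 per list and contrast, unless said otherwise; Slc4a1 was named after its values were seen. One gene of the lists is not reported here. Pseudocounts of 1 CPM were used for gates. R was 4.3.3 and Python 3.11.15.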

Additional observations from a re-analysis of the deposited data

Results flagged for a closer look

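The baseline difference between Ezh2 KO and Control had opposite signs in the male and the female libraries for 8 of the 10 genes. As log2 ratios of CPM in males and in females it was 0.49 and -1.06 for Gata1, 0.38 and -1.41 for Klf1, 0.54 and -1.24 for Epor and 0.64 and -1.42 for Car1. For the membrane proteins it was 0.66 and -1.75 for Ermap, 0.49 and -1.83 for Rhd, 0.34 and -1.4 for Aqp1 and 0.69 and -1.93 for Tspo2. With 1 library per sex and genotype the difference between the sexes was not tested. Erythroid-like cells made up 0.699% and 0.927% of the male Control and Ezh2 KO libraries and 3.25% and 0.967% of the female ones. Among these libraries the female Control was highest and the male Control lowest, as for each of the 8 transcripts. Both Ezh2 KO libraries lay between, with the male above the female for Epor, Ermap, Rhd and Tspo2 but not for the share. The part of the share in the transcripts was not tested.

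Car2 was singled out because the difference between Jarid2 KO and Ezh2 KO itself differed between the experiments, by -1.11 on the log2 scale (adjusted p = 0.00824, edgeR). Both libraries labelled Jarid2 KO were above both labelled Ezh2 KO at baseline and below both after transplantation, so all 4 moved with their group in each experiment. The part of transplantation, age, donor sex or Cell Ranger version (7.2.0 at baseline, 6.1.2 after transplantation) in this difference was not tested.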

How the results depend on the processing

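Of the counts of members called, 470 recomputed values stayed within 1.5 times the reported count and 51 moved; of the values of single genes, 2091 stayed on their side of the threshold (134 of them, with no call in either fit, changed sign), 26 gained a call, 10 lost one and 1 reversed (Ermap for baseline Ezh2 KO against Control, -0.40 with all libraries and 0.70 without Ezh2 KO replicate 2, within a range of -1.71 to 0.70 with 1 library left out). In the baseline sums, Ezh2 KO against Control went from 0 to 1 without the erythroid-like cluster and to 0 to 7 with 1 library left out (1 without Ezh2 KO replicate 2, beside 2.81% of all genes). Jarid2 KO against Ezh2 KO went from 0 to 1 by DESeq2 and to 0 to 9 with 1 library left out. In the transplant sums, Ezh2 KO against Control went from 1 to 2 by DESeq2, with library totals alone (7.37% of all genes) or with all deposited barcodes (5.89%), to 0 with genes of at least 10 CPM (2.00%) or male cells only (2.26%), and to 1 to 2 with 1 library left out (2 without Jarid2 KO replicate 1 or 2, beside 6.80% and 6.78%). Jarid2 KO against Ezh2 KO went from 4 to 1 with genes of at least 10 CPM (5.36%), a filter that Epor, Car1 and Tspo2 do not pass, and to 2 to 4 with 1 library left out (2 without Ezh2 KO replicate 1, beside 6.78%). The differences between experiments went from 0 to 1 (Ezh2 KO against Control) and from 1 to 3 (Jarid2 KO against Ezh2 KO, beside 5.55%) by DESeq2.

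In the shares without thinning, counts were 1 for Jarid2 KO against Control, then 2 (Ezh2 KO against Control) and 5 (Jarid2 KO against Ezh2 KO) at baseline, beside 1.67%, 7.13% and 7.90% of all genes, and 1 and 2 for both contrasts with Control after transplantation, beside 1.14% and 5.08%. Thinning to 2500 UMIs gave 1 for baseline Ezh2 KO against Control (6.59%), 1 for transplant Jarid2 KO against Ezh2 KO (6.56%) and 1 for the difference between experiments for Ezh2 KO against Control (0.646%). Requiring at least 2 UMIs gave 0 for transplant Jarid2 KO against Ezh2 KO (1.95%), and no mean trend gave 0 for the baseline one. With 1 library left out the baseline shares gave 0 to 1, 0 to 6 and 1 to 7, the transplant Jarid2 KO against Ezh2 KO share 0 to 2 and the difference between experiments 1 to 2. Levels without thinning gave 1, 2 and 2 at baseline, beside 2.60%, 2.97% and 4.63%, and 2 for transplant Jarid2 KO against Ezh2 KO, beside 0.584%. Calls within clusters went from 5 to 3 by DESeq2 at baseline (0.386%) and ranged from 4 to 18 there and from 4 to 17 after transplantation with 1 library left out. Splitting each antibody at its median gave 1 member moving the same way between the CD150-high gates, beside 59.8% of genes. The cause was not tested for any of these.

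Same-numbered transplant knockouts did not deviate together (r = 0.0189 over 8093 genes), so the numbers were not taken as pairs. With the replicate block, 3 members passed for transplant Jarid2 KO against Ezh2 KO beside 9.93% of all genes, and Tspo2 was at -1.82 with an adjusted p of 0.0714. Leaving out the cluster and the 2 females with many erythroid-like cells, leaving out the mast or basophil-like cluster, and dropping the mean trend were chosen after seeing the data. The lone Control limits both transplant contrasts with it, and with at most 28 UMIs per transplant library for Ermap, Rhd and Tspo2 changes of modest size were not detectable.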

Other observations

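Single baseline cells were described by how many members they held and by 3 pairs of members, chosen after their values were seen. After thinning, 5 or more of the 10 genes were found in 0.470% and 2.36% of cells in the male and female Control, 0.703% and 0.719% in the Ezh2 KO pair and 0.663% and 2.60% in the Jarid2 KO pair, and in 0% to 0.136% after transplantation. Over the 6 baseline libraries Tspo2 was found in 28.6% to 50.0% of cells with Ermap and in 0.0742% to 0.535% of cells without it. Klf1 was found in 12.5% to 32.4% of cells with Gata1 and in 0.411% to 1.60% of the others. For Car2 and Rhd the odds ratio of detection in the same cell was 0.921 to 3.85 over these libraries. Transplant libraries had at most 2 thinned cells with Ermap, so no such share is given for them. Cells differ in depth and in cell type, so these values are a description.

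The genes enriched most in Klf1-positive cells against other cells of the same library, as the median log2 ratio over 11 libraries among 7433 genes, were the metallothionein Mt1 at 3.46, Apoe at 2.29, C1qtnf12 at 2.27, Fam241a at 2.10 and Gfi1b at 2.08. For Gata1 they were Mt1 at 2.85, Apoe at 2.84, the platelet integrin gene Itga2b at 2.40, Gata2 at 1.97 and Gfi1b at 1.87. For Car1 they were Mt1 at 3.50 (-6.55 to 4.43 over libraries), C1qtnf12 at 2.33 (-4.84 to 3.15), Mns1 at 2.26 (0.13 to 2.89) and the heme enzyme gene Cpox at 2.01 (-5.11 to 2.52), so for 3 of these 4 the sign was not the same in every library. Mt1 also fell below 0 in at least 1 library for Klf1 (lowest -0.57) and Gata1 (-1.01), as did Fam241a for Klf1 (-1.21). These ratios were taken over thinned cells, of which those with a UMI of Car1 numbered 52 to 432 at baseline and only 3 to 28 in transplant libraries. Mt1, Gfi1b and Gstm5 were among the 8 highest for all 3 anchors. The 11 libraries share their cell sort.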
